A study of Mus musculus with 7 samples.

Results

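The genes of 9 replacement histone variants were read out in bulk RNA-seq of preleptotene-enriched mouse testes, comparing wild type (WT) with the *Meioc* knockout (Meioc KO). They were taken by name from the 21928 genes in the files and are *H2afx* (H2A.X), *H2afz* and *H2afv* (the pair of H2A.Z genes), *H2afy* and *H2afy2* (the pair of macroH2A genes), *H2afj* (H2A.J), *H3f3a* and *H3f3b* (the pair of H3.3 genes) and *Cenpa* (CENP-A). The members were chosen by the difference between the genotypes in their estimated counts and TPM, with that contrast already known, so the members' differences are given with their standard errors and without p-values. All 9 had at least 1 TPM in at least 3 of the 7 libraries and were among the 13630 genes tested. TPM is a level per effective transcript length, as estimated with the correction for sequence bias, not per annotated length.

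The 7 libraries came from 4 WT and 3 Meioc KO pups of strain C57BL/6N, each made from 1.5 testes of 1 pup. All pups, controls included, had spermatogenesis synchronized: WIN 18,446, which blocks the synthesis of retinoic acid, was given at 0.1 mg per gram on postnatal days 2 to 8, retinoic acid at 0.0125 mg per gram on day 9, and testes were taken 6.75 days later. The *Meioc* allele was null in every cell of a KO pup, not only in germ cells. Whole testes were used, so somatic cells contributed RNA, and in such bulk samples fewer cells of a type and less RNA per cell cannot be told apart.

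Replacement histones are made outside S phase as well as within it and take the place of the replication-dependent histones, which are made in bulk while DNA is copied. H2A.X is phosphorylated on its tail around DNA double-strand breaks and, in male meiosis, over the sex chromosomes. H2A.Z and H3.3 mark promoters and other sites of nucleosome turnover, macroH2A carries a large extra domain and is linked to silent chromatin, and CENP-A defines the centromere. Preleptotene spermatocytes are the cells that undergo the last S phase before meiotic prophase.

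Depth lay between 12537852 and 20552702 estimated counts per library. *Meioc* was counted at 466, 658, 662 and 718 CPM (estimated counts scaled to 1000000 per library) in WT replicates 1 to 4 and at 399, 299 and 412 CPM in Meioc KO replicates 1 to 3, lower in every KO library but not absent. WT replicate 1 lay about as near to Meioc KO replicate 1 (Pearson r of log2 CPM across genes 0.987) as to WT replicate 2 (0.988). Its correlation with WT replicates 3 (0.986) and 4 (0.983) was lower than with Meioc KO replicate 1. WT replicate 1 is named below wherever a member turns on it. The summed level of 6 germ cell marker genes was 1973 to 2218 CPM in WT and 1326 to 1484 CPM in Meioc KO. The edgeR test called 3 of the 6 higher in WT and 0 lower, against 7.77% and 3.33% of all tested genes. The summed levels of Sertoli (1453 to 1599 CPM in WT, 1383 to 1543 in Meioc KO), Leydig (246 to 536, 296 to 603), peritubular myoid (520 to 597, 490 to 572), endothelial (63.8 to 80.7, 69.0 to 85.0) and macrophage markers (285 to 300.3, 257 to 320.1) overlapped between the genotypes. Of these somatic markers only *Gata4* was called, lower in WT. The 5 markers of later germ cells summed to under 1 CPM in every library, with *Prm1* at 0 throughout. The part of this difference in germ cell markers in the results that follow was not tested.

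*H2afx* differs from the other members in how its messenger RNA can end, and the sequence that sets it apart is shown first. Transcripts of replication-dependent histone genes end just after a stem-loop in place of a poly(A) tail, and *H2afx* is known to be made both in that short form and in a longer form with a poly(A) tail. A sense-strand search after the stop codon of every transcript for the 16-base core of the histone stem-loop (GG, any 2 bases, CTTTT, any base, AG, any 2 bases, CC) found it in 1 of the 9 members, *H2afx*. It was found in 44 of 67 replication-dependent histone genes (65.7%) and in 61 of all 21928 genes (0.278%). The 67 were taken by symbol and include the testis variants *Hist1h2aa* and *Hist1h2ba*. A gene annotated with few or no bases after its stop codon could not match. The *H2afx* match lay at chr9:44335240-44335255 on the plus strand (GRCm38), in the 3′ UTR of the gene's single exon, 46 bases after the stop codon. That of *Hist1h2ab*, a replication-dependent H2A gene, lay at chr13:23751572-23751587 on the plus strand, also 46 bases after its stop codon. Capitals mark the pattern.
H2afx: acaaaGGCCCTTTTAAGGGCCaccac
Hist1h2ab: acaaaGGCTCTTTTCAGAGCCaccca
The annotated *H2afx* transcript runs on for 822 bases beyond the pattern, whereas that of *Hist1h2ab* stops after 11. This length varies among the replication-dependent H2A genes and does not set *H2afx* apart from them. It is 23 bases in *Hist1h2ag* and 2010 in *Hist1h2ac*. The files hold 1 transcript of *H2afx*, so the short and long forms share 1 value here, and since ribosomal RNA was depleted without selection of poly(A) tails, both forms could be sequenced.

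Promoter windows of 300 bases, from 250 before to 50 after the RefSeq start, were at hand for 8 of the 9 members (all but *H2afx*). The CCAAT box (CCAAT or ATTGG, bound by NF-Y) was present in 7 of these 8, all except *H2afy*, and in 37.9% of 27025 promoters. The CHR element of cell cycle genes (TTTGAA or TTCAAA) was present in 2, *H2afv* and *Cenpa*, and in 18.1% of all promoters. The E-box CACGTG was found in 1 member, *H2afz*, and in 7.24% of promoters. The E2F pattern GCGGGAA (4.66% of promoters) and the STRA8 pattern CNCCTCAG (7.97%) were found in 0 of the 8 on either strand. The windows of *H3f3b* and *Cenpa* are printed because their mean CPM lay on opposite sides, that of *H3f3b* higher in WT and that of *Cenpa* lower, although the *Cenpa* libraries overlapped. Capitals mark CCAAT boxes and the CHR element.
H3f3b, chr11:116024455-116024754, minus strand, GRCm38.p6: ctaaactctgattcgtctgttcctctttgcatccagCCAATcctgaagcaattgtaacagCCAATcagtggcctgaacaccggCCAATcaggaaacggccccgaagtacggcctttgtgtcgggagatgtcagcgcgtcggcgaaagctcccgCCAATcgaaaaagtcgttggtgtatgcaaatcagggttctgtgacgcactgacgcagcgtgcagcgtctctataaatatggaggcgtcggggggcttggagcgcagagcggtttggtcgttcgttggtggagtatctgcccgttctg
Cenpa, chr5:30666636-30666935, plus strand, GRCm38.p6: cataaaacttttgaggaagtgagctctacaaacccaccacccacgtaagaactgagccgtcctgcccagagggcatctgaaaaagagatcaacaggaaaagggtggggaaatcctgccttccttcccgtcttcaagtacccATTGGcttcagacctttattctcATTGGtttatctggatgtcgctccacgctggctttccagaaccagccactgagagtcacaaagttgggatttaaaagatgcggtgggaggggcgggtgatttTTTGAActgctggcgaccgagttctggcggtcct
The *H3f3b* window held 4 CCAAT boxes. The *Cenpa* window held 2, both before the start, and its CHR element lay after the start.

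In CPM, *H2afx*, *H2afz* and *H3f3b* were higher in every WT library than in any Meioc KO library, *H2afy2* was lower in every WT library, and the other 5 members overlapped. In TPM, *H2afx* (higher in WT) and *H2afy2* (lower) again did not overlap, *H2afz* and *H3f3b* did, and *H3f3a* and *Cenpa* were lower in every WT library. Over all tested genes, 26.2% in CPM did not overlap between the genotypes, 15.4% with WT above and 10.8% with WT below. The shares in TPM were not computed, so the members without overlap in TPM have no background here. On log2(TPM + 1) the median log2 fold change of all tested genes was itself below 0, at -0.23. The edgeR quasi-likelihood test, at an adjusted p under 0.05, called 3 members (*H2afx* and *H3f3b* higher in WT, *H2afy2* lower), beside 11.1% of all tested genes (7.77% higher in WT and 3.33% lower). With limma on the TPM scale 4 members were called, *H2afx* higher in WT and *H2afy2*, *H3f3a* and *Cenpa* lower, and with library sizes alone 2, without *H3f3b*. Of the 13630 tested genes, limma on log2(TPM + 1) called 2522, of which 440 were higher in WT and the rest lower. With library sizes alone 1713 were called, 814 of them higher in WT. The counts of members describe genes listed with this contrast in view. The median log2 fold change of the 9 members, WT over Meioc KO, was 0.035, beside -0.0065 for all 13630 genes, with 5 members above 0 and 4 below.

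**Figure D1:**
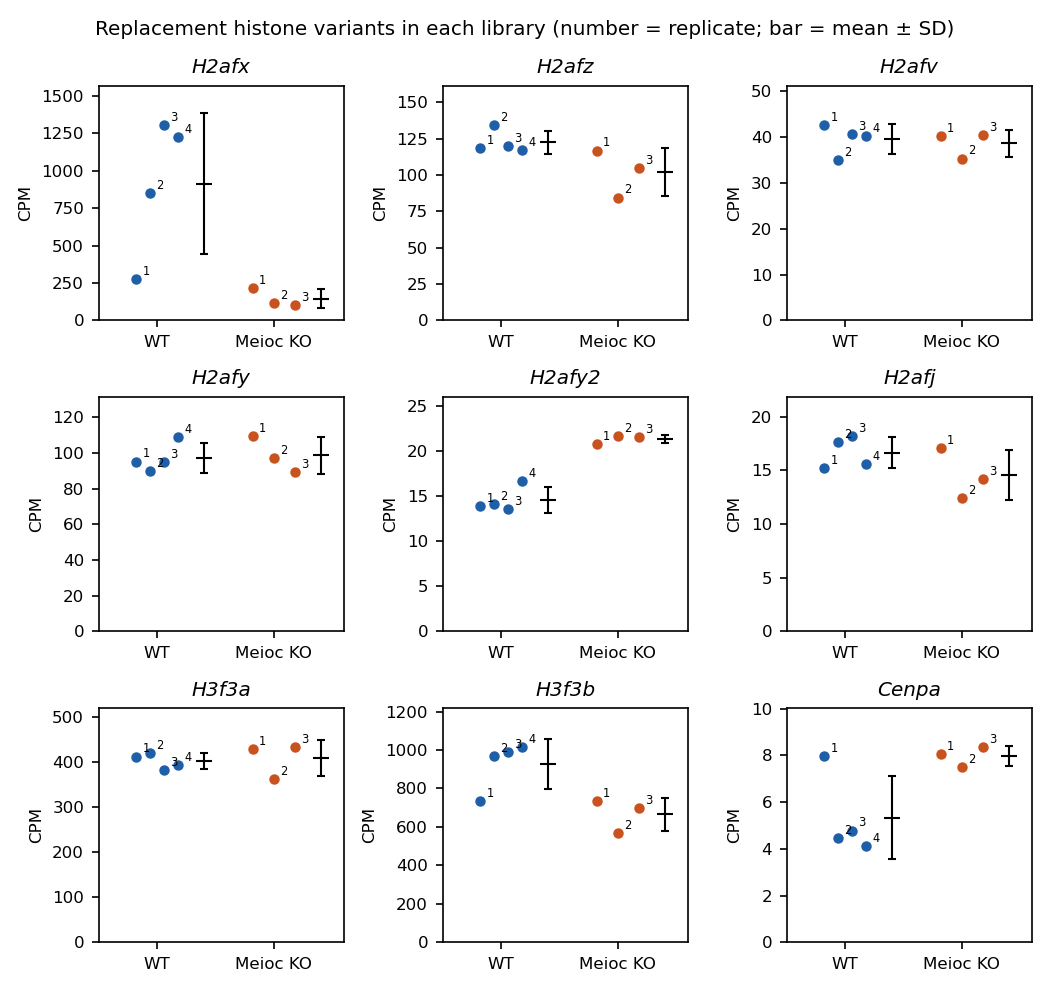
Level of each member in CPM (linear axis from 0) in the 4 WT (blue) and 3 Meioc KO (orange) libraries, with the replicate number beside each point and the mean ± SD at the right. WT replicates 2 to 4 of *H2afx* stand at 850 CPM and above, WT replicate 1 at 276 CPM and the Meioc KO libraries at 217 CPM and below, while the other members differ far less between the genotypes.

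*H2afx* (chr9:44334694-44336077, GRCm38) encodes H2A.X, the variant whose phosphorylated form marks DNA breaks. It was counted at 276, 850, 1304 and 1225 CPM in WT replicates 1 to 4. In Meioc KO replicates 1 to 3 it was counted at 217, 113 and 104 CPM. WT replicates 2 to 4 were high, whereas WT replicate 1 lay just above the highest Meioc KO library, at 1.27 times its level. The means were 914 ± 469 CPM (SD, n = 4) and 145 ± 62.7 CPM (SD, n = 3), a fold change of 6.31 (log2 fold change 2.66, standard error 0.50). Of the 13630 tested genes, 19 had a higher log2 fold change. The spread was wide within WT, where the highest library had 4.73 times the level of the lowest. Without WT replicate 1 the log2 fold change was 2.96. Leaving out 1 library at a time gave 2.44 to 3.07 over 7 fits, and the fits without Meioc KO replicate 2 (2.51) or replicate 3 (2.47) no longer called it.

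In TPM, in which genes are compared per effective length, *H2afx* had 233, 638, 1003 and 940 in WT and 192, 112 and 87.3 in Meioc KO. *H3f3a* stood first among the 9 members in every library. *H2afx* came second in WT replicates 3 and 4, where *H3f3b* (826 and 856 TPM) was close to it, and behind *H3f3b* but ahead of *H2afz* in WT replicate 2. It stood behind both in WT replicate 1 and in the Meioc KO libraries, and in Meioc KO replicates 2 and 3 behind *H2afv* as well. Of the summed TPM of the 6 H2A variant genes, *H2afx* made up 28.8%, 56.0%, 66.6% and 64.5% in WT and 24.3%, 16.5% and 13.7% in Meioc KO. It was the most abundant of the 6 in WT replicates 2 to 4, and *H2afz* was in the other 4 libraries. These orders and shares depend on the effective lengths. Those were 1912 to 2052 bases for *H2afx-201* (1384 annotated) and 197 to 207 for *H2afv-201* (519 annotated). *H2afv-201* took a mean of 39.6% of its gene's counts in WT but 80.8% of its TPM.

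The replication-dependent H2A genes, whose coding sequence is close to that of *H2afx*, were set beside it. They were taken by symbol, so the testis variant *Hist1h2aa*, described below, is among the 18. It had 522, 1384, 1420 and 1427 CPM in WT and 381, 174 and 279 CPM in Meioc KO. The 18 genes summed to 2885, 5817, 6621 and 6042 CPM in WT and to 2516, 1465 and 2037 CPM in Meioc KO. The order of the libraries was like that of *H2afx*, with WT replicate 1 nearest to the Meioc KO libraries. *H2afx* was nevertheless a larger percentage of this sum in each WT library (9.56%, 14.6%, 19.7% and 20.3%) than in any Meioc KO library (8.62%, 7.72% and 5.11%). Of the 17 H2A genes tested, 8, *Hist1h2aa* among them, were called higher in WT and 0 lower by edgeR, against 7.77% and 3.33% of all genes. Their median log2 fold change was 0.96 over the 17. Of the 12 replication-dependent H3 genes, 1 was called higher and 2 lower, with a median of -0.21. Single genes of these clusters are uncertain, since near-identical copies share reads. *H2afx* shares 8.86% of its 31-base words with 25 other genes, so part of its count could be divided with them by estimation, but most of the transcript is its own.

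**Figure D2:**
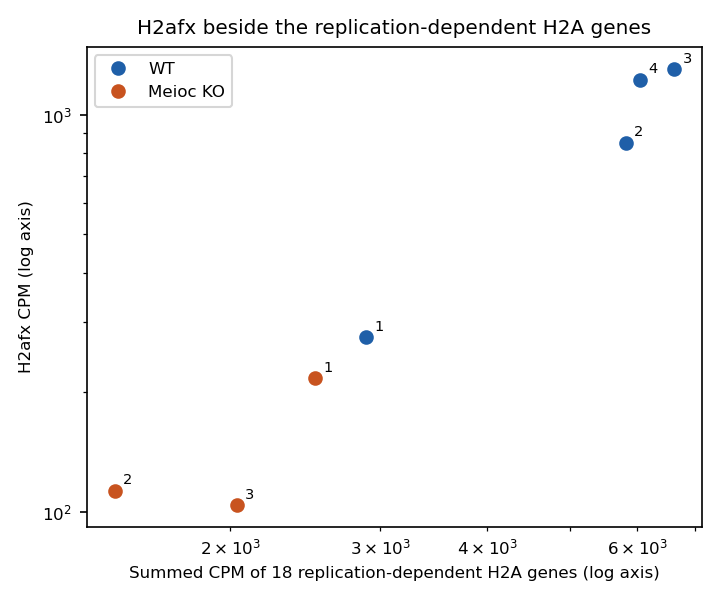
Level of *H2afx* against the summed level of the 18 replication-dependent H2A genes taken by symbol, *Hist1h2aa* included. Both are in CPM on log axes, with 1 point for each WT (blue) or Meioc KO (orange) library and its replicate number. WT replicates 2 to 4 lie together at the upper right, and WT replicate 1 (2885 and 276 CPM) lies next to Meioc KO replicate 1 (2516 and 217 CPM).

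The genes of the H2A.Z pair encode nearly the same protein. *H2afz* (chr3:137864487-137866922) was counted at 119, 134, 120 and 117 CPM in WT and at 117, 84.5 and 105 CPM in Meioc KO. Every WT library was above every Meioc KO library, but the lowest WT library exceeded the highest Meioc KO library by a factor of only 1.0015. The means were 123 ± 8.02 (SD, n = 4) and 102 ± 16.3 CPM (SD, n = 3), which gave 0.26 on the log2 scale (standard error 0.11). *H2afv* (chr11:6427229-6444443) was counted at 42.6, 34.9, 40.7 and 40.2 CPM in WT and at 40.1, 35.3 and 40.4 CPM in Meioc KO. Its groups overlapped throughout, and its log2 fold change of 0.035 was smaller than its standard error of 0.096. *H2afz* made up 66.6% ± 4.10 (SD, n = 4) of the TPM of the pair in WT and 63.1% ± 3.37 (SD, n = 3) in Meioc KO, a difference within the spread of the libraries. As *H2afz* shares 34.5% of its words with 4 processed pseudogenes, its count is less certain than that of *H2afv*, whose longer transcript shares 0.686%.

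The macroH2A pair split. *H2afy* (chr13:56073619-56136361), the more abundant gene, was counted at 95.1, 89.5, 94.8 and 109 CPM in WT and at 109, 97.1 and 89.0 CPM in Meioc KO, and the groups overlapped (log2 fold change -0.021, standard error 0.098). *H2afy2* (chr10:61738665-61784147) was counted at 13.9, 14.1, 13.6 and 16.7 CPM in WT and at 20.8, 21.7 and 21.5 CPM in Meioc KO. All Meioc KO libraries were above all WT libraries, WT replicate 1 included, and they lay close together. The means were 14.6 ± 1.43 (SD, n = 4) and 21.3 ± 0.459 CPM (SD, n = 3), 1.46-fold higher in Meioc KO (log2 fold change -0.55, standard error 0.11). *H2afy2* made up 10.6% to 11.6% of the TPM of the pair in WT and at 13.5% to 16.6% in Meioc KO. The log2 fold change lay between -0.63 and -0.51 when single libraries were left out. It shares 15.8% of its words with 1 processed pseudogene. It was no longer called without WT replicate 2 (-0.53), WT replicate 3 (-0.51), Meioc KO replicate 2 (-0.53) or Meioc KO replicate 3 (-0.54).

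*H2afj* (chr6:136808244-136810074) encodes H2A.J, a variant that differs from the common H2A mainly in its tail. It was counted at 15.2, 17.6, 18.2 and 15.6 CPM in WT and at 17.0, 12.4 and 14.2 CPM in Meioc KO. Meioc KO replicate 1 lay among the WT libraries, and the log2 fold change was 0.19 (standard error 0.13). Per length it was one of the least abundant members, at 10.5 to 12.2 TPM in WT and 10.6 to 13.3 TPM in Meioc KO, near *H2afy2* (7.62 to 9.40 and 13.7 to 16.3 TPM).

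*H3f3a* and *H3f3b* encode the same H3.3 protein from different genes. *H3f3a* (chr1:180800832-180813943) was counted at 412, 419, 381 and 393 CPM in WT and at 429, 362 and 433 CPM in Meioc KO. In CPM the WT values lay within the range of Meioc KO, and the log2 fold change of -0.023 was within its standard error of 0.084. In TPM it had 1311, 1143, 1075 and 1140 in WT and 1427, 1368 and 1454 in Meioc KO, with no overlap, and limma on log2(TPM + 1) gave -0.28 and called it lower in WT. The median of all tested genes on that scale was -0.23. *H3f3b* (chr11:116021912-116027962) was counted at 736, 967, 988 and 1015 CPM in WT and at 733, 567 and 697 CPM in Meioc KO. WT replicates 2 to 4 were high. WT replicate 1 exceeded Meioc KO replicate 1 by a factor of only 1.0045. The means were 927 ± 129 (SD, n = 4) and 666 ± 87.5 CPM (SD, n = 3), 1.39-fold higher in WT (0.48 on the log2 scale, standard error 0.13). Without WT replicate 1 it was 0.57. The fits without WT replicate 2 (0.46), WT replicate 3 (0.45), WT replicate 4 (0.42), Meioc KO replicate 2 (0.37) or Meioc KO replicate 3 (0.51) no longer called it, and limma on log2(TPM + 1) gave 0.14.

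Of the TPM of the H3.3 pair, *H3f3b* made up 35.2%, 40.2%, 43.5% and 42.9% in WT and 33.0% to 34.7% in Meioc KO. WT replicate 1 was again the WT library nearest to Meioc KO. *H3f3a* has many processed copies in the genome. Between 20.2% and 62.8% of the words of its 3 transcripts also occur in 55 other genes, against 13.6% and 17.2% of the words of the *H3f3b* transcripts, so its level is the less certain of the pair.

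The files hold 18 transcripts of the members, and *H2afx* and *H2afy2* have 1 each. The *H3f3b* transcripts encode the same coding sequence of 411 bases and differ mainly before it: *H3f3b-202* has 6 exons and 608 bases of 5′ UTR, and *H3f3b-201* has 4 exons and 136 bases. *H3f3b-202* took 34.7%, 37.9%, 40.9% and 40.3% of the gene's counts in WT and 31.9%, 31.9% and 25.2% in Meioc KO, with every WT library above every Meioc KO library. It was counted at 256, 367, 404 and 409 CPM in WT and at 233, 181 and 176 CPM in Meioc KO. *H3f3b-201* was counted at 480, 600.5, 584 and 606 CPM in WT and at 499, 386 and 522 CPM in Meioc KO, where the groups overlapped. Of the difference between the genotypes in *H3f3b*, the part without overlap thus lay in the transcript with the longer 5′ UTR, as far as 50-base reads divided by estimation can show.

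Among the *H3f3a* transcripts, *H3f3a-207* took a slightly larger share in each WT library (31.6% to 34.5%) than in the Meioc KO libraries (24.9% to 31.2%), and *H3f3a-201* took 56.8% ± 2.00 (SD, n = 4) against 60.9% ± 4.40 (SD, n = 3), with overlap. The share of *H2afv-202* was 60.4% ± 1.85 (SD, n = 4) in WT and 60.6% ± 3.06 (SD, n = 3) in Meioc KO. *H2afy-201* and *H2afy-202* differ in their coding sequence (1119 and 1110 bases), and *H2afy-202* took 11.0% ± 1.12 (SD, n = 4) and 10.9% ± 2.12 (SD, n = 3). Neither of these shares moved beyond the spread of the libraries.

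**Figure D3:**
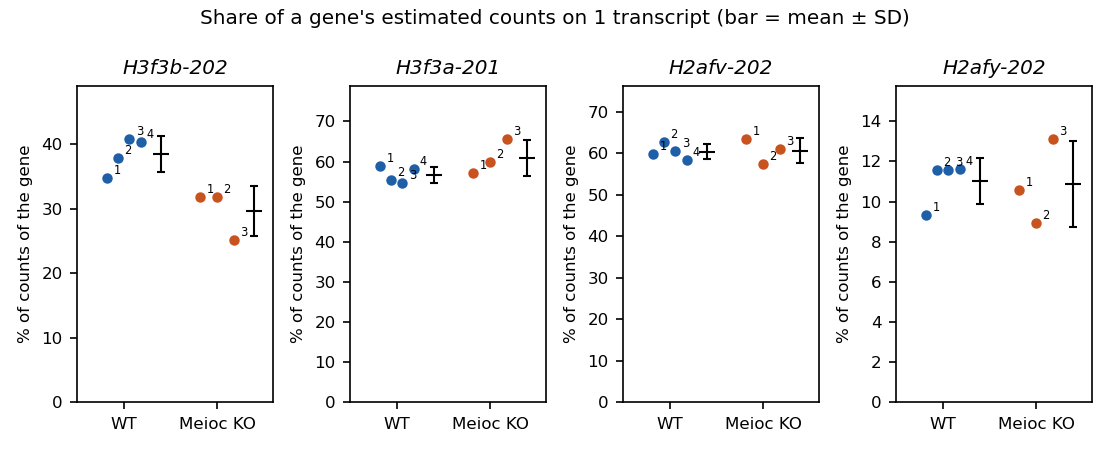
Percentage of a gene's estimated counts given to 1 transcript, in the 4 WT (blue) and 3 Meioc KO (orange) libraries with the mean ± SD. The *H3f3b-202* points of WT (34.7% to 40.9%) lie above those of Meioc KO (25.2% to 31.9%), and the shares of *H3f3a-201*, *H2afv-202* and *H2afy-202* overlap.

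*Cenpa* (chr5:30666777-30674830) encodes the centromeric H3 variant and was the least abundant member by counts. It was counted at 7.96, 4.46, 4.78 and 4.13 CPM in WT and at 8.04, 7.51 and 8.35 CPM in Meioc KO. WT replicates 2 to 4 were low, while WT replicate 1 lay within the range of Meioc KO. The means were 5.33 ± 1.77 (SD, n = 4) and 7.97 ± 0.424 CPM (SD, n = 3), 1.49-fold higher in Meioc KO (-0.59 on the log2 scale, standard error 0.23), the opposite direction to *H2afx*. Without WT replicate 1 it was -0.84 and was called, and on the TPM scales, -1.01 and -1.11, it was also called. These levels rest on 64 to 101 counts per WT library and 104 to 154 per Meioc KO library. The 346-base transcript *Cenpa-206* held 0, 0, 2 and 0 counts in WT and 4, 0 and 2 in Meioc KO, but up to 9.93 TPM, with an effective length of only 35.2 to 41.4 bases. *Cenpa-205* alone had 10.9, 5.40, 5.67 and 5.06 TPM in WT and 11.3, 12.1 and 11.6 TPM in Meioc KO, where WT replicate 1 lay just below the Meioc KO libraries.

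**Figure D4:**
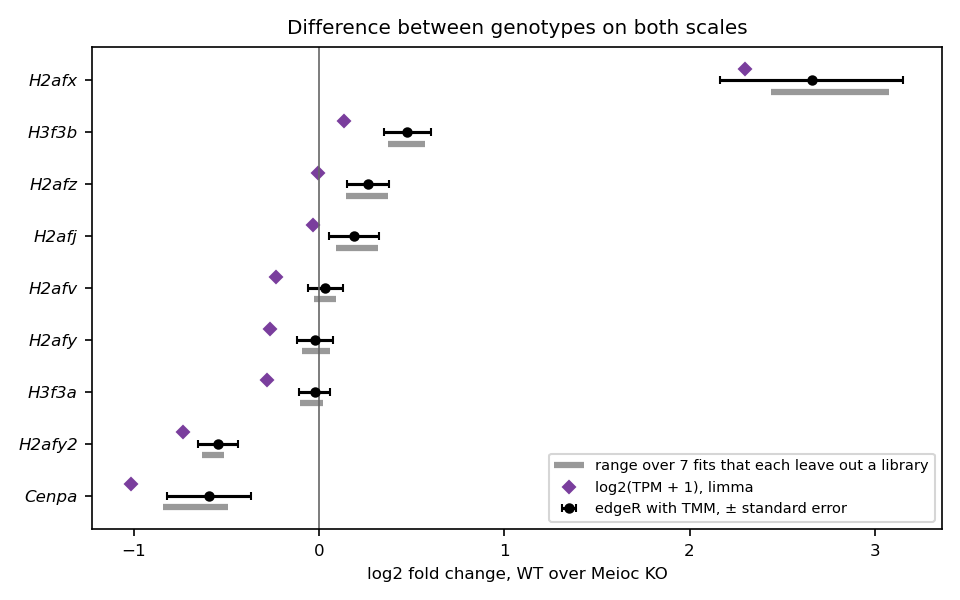
log2 fold change of each member, WT over Meioc KO, from edgeR with TMM normalization (black points, ± standard error), its range over the 7 fits that each leave out a library (grey bars) and the value on the log2(TPM + 1) scale (diamonds). *H2afx* (2.66) stands far from the other 8, which lie between -0.59 (*Cenpa*) and 0.48 (*H3f3b*), and the diamonds lie to the left of the points.

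The TPM scale moved every member towards lower values in WT. On log2(TPM + 1) the median of all tested genes was -0.23, against -0.0065 for counts with TMM normalization. Relative to that median, *H2afx* was at 2.53, *H3f3b* at 0.36, *H2afz* at 0.22, *H2afj* at 0.19, *H2afv* at -0.0050, *H2afy* at -0.040, *H3f3a* at -0.056, *H2afy2* at -0.51 and *Cenpa* at -0.79. On the TPM scale the members stood in the same order as by counts, and subtracting the median leaves that order unchanged. Before the subtraction *H2afz*, *H2afv* and *H2afj* were below 0, unlike by counts.

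The proteins that deposit, modify and read these histones were examined as lists of genes, also chosen with earlier results of these data known. For H2A.X these were kinases, adaptors and readers of its phosphorylation, the phosphatases *Eya1* and *Eya3*, and the meiotic axis genes *Hormad1* and *Hormad2*. Of 15 such genes, all tested, 7 were called higher in WT and 0 lower, with a median log2 fold change of 0.29, beside 7.77% of all genes called higher. *Hormad1*, an axis protein of meiotic chromosomes, was counted at 228 ± 67.1 CPM (SD, n = 4) in WT and 68.5 ± 13.7 CPM (SD, n = 3) in Meioc KO (log2 fold change 1.73, standard error 0.25, edgeR adjusted p = 0.00774). It was called in all 7 fits that each left out a library (1.58 to 1.92). Its relative *Hormad2*, which helps to bring ATR to unsynapsed chromosomes, had a log2 fold change of 1.22 (edgeR adjusted p = 0.0134) and was not called without Meioc KO replicate 2 (1.16) or 3 (1.18).

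*Atr*, the kinase that phosphorylates H2A.X over the sex chromosomes, was counted at 617 ± 97.4 CPM (SD, n = 4) in WT and 355 ± 17.3 CPM (SD, n = 3) in Meioc KO (log2 fold change 0.80, edgeR adjusted p = 0.0104), and was not called without Meioc KO replicate 3 (0.78). *Mdc1*, which binds phosphorylated H2A.X, had a log2 fold change of 0.75 (edgeR adjusted p = 0.0227) and was not called without WT replicate 2 (0.71), 3 (0.66) or 4 (0.72) or Meioc KO replicate 3 (0.68). The other 3 called genes were *Atm*, the kinase that responds to double-strand breaks (0.62), *Brca1* (0.58) and *Topbp1* (0.49), the first pair called in 2 of the 7 fits (without WT replicate 1, at 0.74 and 0.69, or Meioc KO replicate 1, at 0.61 and 0.63) and *Topbp1* in 4 (lost without WT replicate 2 or 3, both 0.46, or Meioc KO replicate 3, 0.48). On the TPM scale 3 genes of the list were called higher, beside 440 of the 13630 tested genes on log2(TPM + 1). At the low end, *Eya1*, a phosphatase of a tyrosine of H2A.X, had a log2 fold change of -0.76 and did not pass (edgeR adjusted p = 0.0697), but it was called lower in WT with DESeq2, with library sizes alone, on the TPM scale and without Meioc KO replicate 1. The log2 fold changes of the 7 called genes were all below that of *H2afx*.

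For CENP-A, 23 genes of its deposition and of the inner kinetochore were tested, with a median log2 fold change of 0.31. Beside 7.77% of all tested genes called higher in WT and 3.33% lower, 5 of the 23 were called higher and 0 lower. Of the 23, 18 had a log2 fold change above 0. That of *Cenpa* was below 0, but edgeR did not call it and its libraries overlapped in CPM. *Cenpm* (0.97, edgeR adjusted p = 0.0255), *Cenps* (0.85, adjusted p = 0.0242), *Cenpq* (0.81, adjusted p = 0.0123) and *Cenpl* (0.57, adjusted p = 0.0474) encode inner kinetochore subunits, and *Oip5* (0.61, adjusted p = 0.0372) encodes a subunit of the complex that prepares centromeres for new CENP-A. *Cenpq* was called in all 7 fits that each left out a library (0.72 to 0.93). *Cenpm*, *Cenps* and *Oip5* were called in 2 of the 7, those without WT replicate 1 (1.08, 0.98 and 0.66) or Meioc KO replicate 1 (1.28, 0.95 and 0.77), and *Cenpl* in 1, without WT replicate 1 (0.67). *Hjurp*, the CENP-A chaperone, had means of 132 ± 10.2 (SD, n = 4) in WT and 137 ± 15.8 CPM (SD, n = 3) in Meioc KO and did not pass (-0.058, edgeR adjusted p = 0.720). *Cenpt* was lowest in the list, at -0.27 (edgeR adjusted p = 0.378).

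For H2A.Z, 14 genes of the SRCAP, TIP60 and INO80 exchange complexes and *Anp32e* were tested, with a median log2 fold change of 0.10. Beside 7.77% of all tested genes called higher in WT and 3.33% lower, 2 of the 14 were called higher and 0 lower. These were *Dmap1*, a subunit of SRCAP and TIP60 (0.52, edgeR adjusted p = 0.0345), and *Ruvbl2*, an ATPase shared by the complexes (0.35, adjusted p = 0.0287). Both were called in 2 of the 7 fits, those without WT replicate 1 (0.60 and 0.39) or Meioc KO replicate 1 (0.64 and 0.38). On the TPM scale the direction of the calls in this list turned, with 0 higher and 2 lower in WT (*Ruvbl1* and *Anp32e*). Of the 2522 genes called on log2(TPM + 1), 440 were higher in WT. *Trrap* was lowest, at -0.35 (edgeR adjusted p = 0.344), with 1 Meioc KO library far above the others. For H3.3, 7 chaperone genes were tested, with a median of -0.0017. Beside the same shares of all tested genes, 1 of the 7 was called lower in WT and 0 higher. This was *Atrx*, a chromatin remodeller that deposits H3.3 at telomeres and heterochromatin, at 360.2 ± 33.4 CPM (SD, n = 4) in WT and 482 ± 67.4 CPM (SD, n = 3) in Meioc KO (-0.42, edgeR adjusted p = 0.0397). It too was called only without WT replicate 1 (-0.46) or Meioc KO replicate 1 (-0.53) among the 7 fits. *Ubn1*, highest in the list, was at 0.17 (edgeR adjusted p = 0.217), and *Hira*, the chaperone of H3.3 in transcribed genes, at -0.00079.

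**Figure D5:**
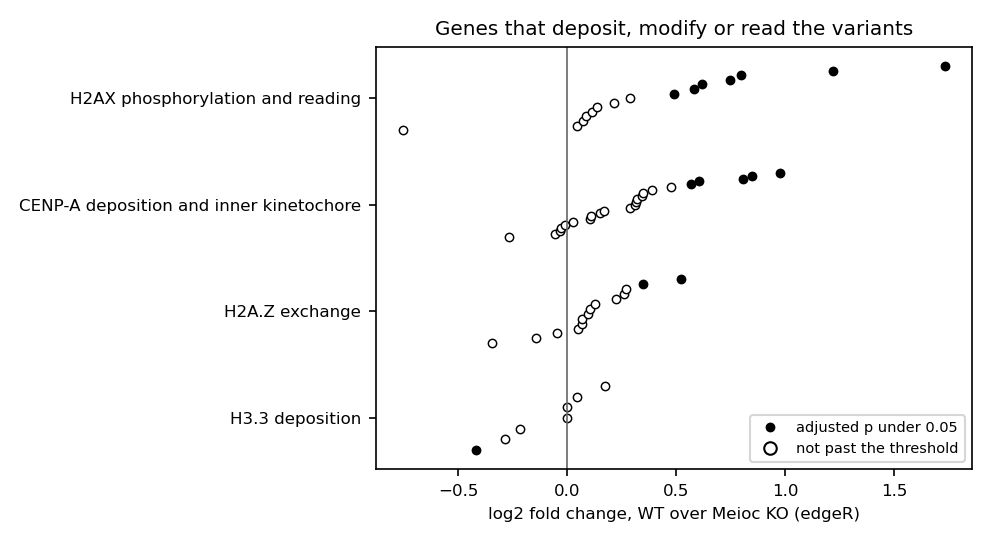
log2 fold change, WT over Meioc KO, of each tested gene in the lists for H2A.X phosphorylation, CENP-A deposition and inner kinetochore, H2A.Z exchange and H3.3 deposition, with called genes filled. Called genes lie above 0 in the H2A.X, CENP-A and H2A.Z lists (7 of 15, 5 of 23 and 2 of 14 genes). The single called gene of the 7 in the H3.3 list, *Atrx*, lies below 0. Of all tested genes, 7.77% were called higher in WT and 3.33% lower.

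Histone variants made mainly in the testis were listed beside the members. Of 10 such genes, 8 were at 0 counts in every library. *Hist1h2aa*, which encodes the testis H2A variant TH2A, was counted at 522, 1384, 1420 and 1427 CPM in WT and at 381, 174 and 279 CPM in Meioc KO. WT replicate 1 again lay between the other WT libraries and Meioc KO, and the log2 fold change was 2.09 (standard error 0.37, edgeR adjusted p = 0.0144). It was not called without Meioc KO replicate 3 (2.10). *Hist1h2ba*, which encodes the partner TH2B, was listed at 538, 1571, 1480 and 0 CPM in WT and at 0 in each Meioc KO library. As WT replicate 4 was at 0 while *Hist1h2aa* was at its highest there, the division of reads between H2B genes is uncertain, and no fold change is given. No match to the stem-loop pattern was found in *Hist1h2aa*, but only annotated bases after the stop codon were searched. Its annotation (chr13:23934462-23934851) is about as long as an H2A coding sequence (390 bases in *H2afj-201*), so it left little or nothing to search. *Hist1h2aa* is already part of the H2A sum set beside *H2afx* above.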

How the data were processed

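Libraries were grouped by the genotype and biological replicate number in their labels; each is a separate pup. The authors trimmed reads with cutadapt 1.8 and ran kallisto 0.44.0, with strand and sequence-bias correction, on GENCODE Basic vM15 transcripts of mm10. The deposited tables hold estimated counts per protein-coding transcript, not normalized across libraries, and TPM, which the authors rescaled over protein-coding transcripts. Deposited lengths and effective lengths (bases) were read as given. The members and gene lists were chosen with earlier results of these data known.

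Of 43139 transcripts, 43020 were matched by Ensembl identifier to GENCODE vM21 (GRCm38) and summed to 21928 genes; the other 119 were left out and accounted for 0.247% to 0.282% of a library. Summed estimated counts were rounded and tested with the edgeR 4.0.16 quasi-likelihood test (R 4.3.3, TMM, no covariates) over the 13630 genes that reached 1 TPM in 3 or more of the 7 libraries, with Benjamini-Hochberg adjustment and calls at an adjusted p under 0.05. CPM uses TMM-scaled library sizes, and 3 counts correspond to 0.151 to 0.236 CPM. Library-to-library spread includes counting error. Fold changes are WT over Meioc KO. Alternatives were DESeq2 1.42.0, RLE factors, library sizes without factors, limma 3.58.1 with trend on TPM with a pseudocount of 1 or 0.1 (log2), other filters, a replicate block and leaving out each library. The fits were tested on simulated data.

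Genes named are the members, *Meioc*, in each list up to 4 called genes with the largest absolute change and the lowest and highest, and the 5 tested genes nearest to *H2afx* and *Cenpa* by Pearson r of log2 CPM. *Atm*, *Brca1*, *Topbp1*, *Cenpl*, *Hjurp*, *Hira*, *Ruvbl1*, *Anp32e*, *Eya3*, *Hist1h2ac*, *Hist1h2ag* and the single germ cell markers were named after their values were seen. Promoter sequences are from RefSeq (GRCm38.p6), and stem-loop sequences from GENCODE transcripts.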

Additional observations from a re-analysis of the deposited data

Results flagged for a closer look

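In WT, the level of *H2afz* in replicate 2 (134 CPM) stood apart from the other 3 libraries (117, 119 and 120 CPM) by a gap just past Dixon's critical value for 4 samples. In CPM, *Cenpa* and *H3f3b* in WT replicate 1 (7.96 and 736 CPM) and *H2afy2* in WT replicate 4 (16.7 CPM) fell just short of the same value. The *H2afz* value was the 1 past it in 18 groups of 4 WT values, the CPM and TPM of each member, and chance sets apart about 1 in 20 such groups. Without WT replicate 2 the log2 fold change of *H2afz* was 0.22, against 0.26 with it.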

How the results depend on the processing

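The number of genes called was 1513, and it was 2331 with DESeq2, 2522 and 2506 with limma on log2(TPM + 1) and log2(TPM + 0.1), and 131 (without Meioc KO replicate 3) to 2172 (without WT replicate 1) when a library was left out. Of the called genes, 70.0% were higher in WT, against 47.5% with library sizes alone and 17.4% and 17.7% on the TPM scales, whose medians of all genes were -0.23 and -0.25. Leaving out a library gave 0 (without Meioc KO replicate 2 or 3) to 4 called members (limma on TPM also 4, library sizes alone 2), 0 to 3 genes for H2A.Z exchange, 0 to 1 for H3.3 deposition, 1 to 7 for CENP-A, 1 to 8 for H2A.X (the 8 without Meioc KO replicate 1 include *Eya1*, lower in WT) and 0 to 2 for the testis variants. With library sizes alone, 1 gene for H2A.Z exchange and 3 for CENP-A were called, and on both TPM scales 3 for CENP-A and 4 for H2A.X, 1 of these lower in WT; the 2 calls for H2A.Z exchange were of other genes and lower. The direction reversed on both TPM scales for *H2afz* (-0.0061 and -0.0061), *H2afv* (-0.23 and -0.23) and *H2afj* (-0.035 and -0.037), and for *H2afv* with library sizes alone (-0.041). Over the fits that left out a library, *H2afv* ranged from -0.024 to 0.091, *H2afy* from -0.089 to 0.062 and *H3f3a* from -0.10 to 0.022. The cause of these changes was not tested. Same-numbered WT and Meioc KO libraries did not deviate together (correlations of -0.057, -0.10 and -0.23), and the labels state no pairing. In groups this small the deviations from a group mean are tied to each other, so these values cannot exclude it. With the replicate numbers as a block, 109 genes were called, with 0 members and 0 genes for H2A.Z exchange, H3.3 deposition and CENP-A. The block left 1 call for H2A.X and 1 testis variant, *Hist1h2ba*, whose counts are uncertain, while *Hist1h2aa* was lost (edgeR adjusted p = 0.0778). Taken by TPM in place of counts, the difference between the genotypes in the share of *H3f3b-202* was 7.19 percentage points, against 8.82 by counts. Depth limits *Cenpa* most, at 64 to 154 counts.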

Other observations

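By Pearson r of log2 CPM over the 7 libraries, the tested genes nearest to *H2afx* were *Mrpl17* and *Hist1h2bm* (both r = 0.997), *Eif1ad* (0.997), *Psmd1* (0.996) and *Nelfe* (0.996). Libraries of both genotypes enter these values, so any gene that differs between the genotypes in the same way scores high, and 0 of the 5 were among the nearest 5 when deviations from the group means were used. *Mrpl17* was counted at 40.9, 54.0, 60.8 and 61.8 CPM in WT and at 37.1, 30.8 and 32.2 CPM in Meioc KO. *Hist1h2bm*, a replication-dependent H2B gene whose count is uncertain for its near copies, was counted at 125, 277, 394 and 388 CPM in WT and at 106, 63.6 and 72.5 CPM in Meioc KO.

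The genes nearest to *Cenpa* were *Lrfn4* (r = 0.994), *Corin* (0.985), *Dram2* (0.984), *Selenoi* (0.983) and *Rnf170* (0.983). By deviations from the group means, 3 of these were again among the nearest 5. Across the 7 libraries, and with the genotypes pooled, *H2afx* had its highest correlation among the members with *H3f3b* (r = 0.95) and its lowest with *Cenpa* (r = -0.93). These correlations share libraries and are a description.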
